A study of Mus musculus with 12 samples.

Results

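The genes described here were 10 calcium-binding, sugar-binding and actin-linked genes, S100a4, S100a6, S100a10, S100a11, Lgals1, Lgals3, Capg, Anxa2, Vim and Tmsb10, out of 33696 genes listed for each library. They were taken by symbol from the gene list of the single-cell matrices, each symbol matched 1 row, and none was chosen by a threshold on its value. The set was, however, chosen with earlier results of these data known. The matrices held γδ T cells sorted from the spleen as CD3+ CD4- cells, γδ T cells sorted from the thymus as CD8- CD4- cells, and thymic double-negative precursors (DN1 to DN3, the stages before CD4 and CD8 appear). Each of these 3 compartments came from wild-type (WT) and GFI1 knock-out (KO) adult mice on the C57BL6/J background, with 2 libraries per genotype and compartment and 12 libraries in all. The KO was constitutive, so every cell of those mice carried it, and no group received a drug or challenge. The WT and the KO cells of one number were tagged with hashtag antibodies and run together in 1 droplet run, so each number marks a pool. The study used these sorts to ask how the loss of GFI1, a repressor of transcription in blood cells, alters γδ T cells and their thymic precursors.

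S100 proteins are small proteins of the EF-hand family that mostly act by binding calcium and then a partner protein. Galectins are lectins that bind galactose-containing sugars on cell surface glycoproteins. The remaining genes act on the cytoskeleton or the membrane beneath which it lies: Capg caps the fast-growing end of actin filaments, Anxa2 binds membrane phospholipids in a calcium-dependent way and pairs with S100a10, Vim is an intermediate filament protein, and Tmsb10 holds actin as monomers. In T cells most of them are known as genes of activated, memory or effector cells, while resting naive cells carry little S100a4 or S100a6.

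After filtering, 96911 of 97404 deposited barcodes were kept, with 42091895 to 71663962 UMIs (unique molecular identifiers, 1 per counted RNA molecule) per library and a median of 4947 to 6853 UMIs per cell. Gfi1 itself was counted at 11.8 and 17.96 CPM (counts scaled to the total UMIs of the library) in the WT and at 18.1 and 18.1 CPM in the KO libraries of the spleen. Its level in the KO libraries of thymic γδ T cells (28.9 and 19.2 CPM) and DN cells (70.6 and 56.6 CPM) was not below that of WT either (16.5 and 17.6, and 44.7 and 40.6 CPM). The counts come from the 3′ end of the RNA and the sources used here do not say which exons are deleted, so this is no check of the labels, and "KO libraries" below means the libraries labelled KO. Xist was at or below 0.374 CPM in all splenic libraries and at 739 to 1600 CPM in all thymic libraries, so the mouse's sex, the tissue and the run cannot be told apart in any comparison of spleen with thymus. Ddx3y, a gene of the Y chromosome, was at 82.2 to 100.3 CPM in the spleen and at 11.6 to 35.8 CPM in the thymic libraries, so each thymic library held RNA of both sexes. Its level differed with genotype in DN cells, at 28.02 and 25.96 CPM in WT and 11.6 and 14.2 CPM in KO, and the part of an unequal mix of sexes in the DN differences below was not tested. Markers of the other cells that carry these genes were low: the summed level of 8 macrophage and monocyte markers was 0.97 to 9.66 CPM and that of 5 neutrophil markers at most 0.15 CPM in any library. Other lists that moved with genotype include the following. In the spleen the summed B-cell markers were 221 to 442 CPM in WT and 62.9 to 120.3 CPM in KO libraries, NK-cell markers 95.7 to 113 against 9.78 to 10.7 CPM, markers of conventional T cells 210.2 to 216 against 24.4 to 29.8 CPM and red-cell markers 37.1 to 41.8 against 73.6 to 165 CPM. Markers of thymic epithelium, of which 2 of 4 were counted in WT and 3 in KO spleen, were 13.3 to 15.4 against 0.769 to 0.791 CPM there and 29.3 to 30.2 against 5.38 to 9.44 CPM in thymic γδ T cells. The list of DN precursor markers was at 46.97 to 51.15 against 160 to 171 CPM in the spleen. In thymic γδ T cells that list was at 52.0 to 68.6 against 122 to 152 CPM. The γδ T markers themselves were 2106 to 2215 against 3196 to 3572 CPM in the spleen, 2567 to 2678 against 3524 to 3561 CPM in thymic γδ T cells and 1262 to 1274 against 877 to 889.6 CPM in DN cells. In thymic γδ T cells B-cell markers were 156 to 158 against 64.0 to 81.6 CPM, conventional T markers 113 to 117 against 49.4 to 52.1 CPM and the cycling markers Mki67 and Top2a 748 to 901 against 159 to 199.7 CPM. In DN cells B-cell markers were 115 to 122 against 136 to 263 CPM, NK-cell markers 5.26 to 6.91 against 13.6 to 20.6 CPM cycling markers 782 to 841 against 493 to 579.6 CPM and red-cell markers 8.17 to 8.88 against 0.391 to 0.493 CPM. With cells that held a UMI of B-cell, myeloid or red-cell genes left out, no call of the 10 genes between genotypes was lost in any compartment. A list does not prove a cell type, and the study's own list of genes changed within splenic Trgv6+ cells holds Cd5, Cd79b and Ighm. The part of the other cell types was not tested.

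The place of these genes in the genome and their promoter windows are given as background, and no effect of either on the levels was tested. S100a4, S100a5 and S100a6 lie in a row on mouse chromosome 3, and S100a11 and S100a10 are direct neighbours elsewhere on the same chromosome. RefSeq promoter windows of the GRCm38.p6 build, from 250 bases before to 50 bases after the start of transcription, were at hand for 8 of the 10 genes. Those of S100a4, S100a6, Capg and Tmsb10 are shown as examples, since S100a4, S100a6 and Capg had large differences in each compartment and Tmsb10 the opposite direction in γδ T cells. They are written 5′ to 3′ on the strand of the gene, and capitals mark AATC, the core of the sequence that GFI1 is known to bind, or its reverse complement GATT.
S100a4, chr3:90603520-90603819, plus strand: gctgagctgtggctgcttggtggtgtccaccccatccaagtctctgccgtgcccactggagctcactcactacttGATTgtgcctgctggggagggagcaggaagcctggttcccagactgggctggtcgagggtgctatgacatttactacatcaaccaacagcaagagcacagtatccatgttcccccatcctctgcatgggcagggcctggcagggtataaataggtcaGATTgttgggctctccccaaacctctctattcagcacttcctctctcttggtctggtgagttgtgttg
S100a6, chr3:90612644-90612943, plus strand: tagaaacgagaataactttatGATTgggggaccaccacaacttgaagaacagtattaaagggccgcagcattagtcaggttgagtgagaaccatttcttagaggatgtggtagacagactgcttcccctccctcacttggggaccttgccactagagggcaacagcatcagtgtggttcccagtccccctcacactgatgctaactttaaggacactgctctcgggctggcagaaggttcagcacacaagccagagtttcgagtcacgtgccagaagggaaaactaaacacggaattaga
Capg, chr6:72549397-72549696, plus strand: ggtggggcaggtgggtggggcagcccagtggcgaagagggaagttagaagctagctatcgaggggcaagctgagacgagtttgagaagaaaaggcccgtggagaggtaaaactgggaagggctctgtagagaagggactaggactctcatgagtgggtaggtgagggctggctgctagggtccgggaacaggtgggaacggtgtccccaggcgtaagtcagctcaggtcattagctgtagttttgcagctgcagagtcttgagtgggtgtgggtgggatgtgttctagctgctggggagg
Tmsb10, chr6:72958183-72958482, minus strand: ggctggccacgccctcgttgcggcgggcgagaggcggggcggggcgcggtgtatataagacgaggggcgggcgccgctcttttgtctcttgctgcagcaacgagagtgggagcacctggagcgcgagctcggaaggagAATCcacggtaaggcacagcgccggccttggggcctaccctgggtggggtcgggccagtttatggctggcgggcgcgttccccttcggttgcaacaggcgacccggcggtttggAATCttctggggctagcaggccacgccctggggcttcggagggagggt
AATC on either strand was found 2 times in the S100a4 window, 1 time in that of S100a6, 0 times in that of Capg and 2 times in this window of Tmsb10, whose 2 other windows held 0. Of the windows not shown, those of S100a11 and Anxa2 held it 2 times each, that of Vim 1 time and that of Lgals3 0 times. Of 32851 promoter windows of the same length, 73.1% held it at least once, so a match is common. The longer word TAAATCAC was in 0.578% of all windows and in none of the 10 windows of these genes.

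Of the S100 genes, S100a4, which binds non-muscle myosin, was at 409.7 and 246 CPM in the WT and 2963 and 2395 CPM in the KO libraries of splenic γδ T cells. In thymic γδ T cells it was at 148 and 187 CPM in WT and 1108 and 1436 CPM in KO. In DN cells it was at 18.3 and 17.5 CPM in WT and 349 and 143 CPM in KO. In all 3 compartments both KO libraries lay above both WT libraries, with the KO libraries of the DN cells the farthest apart by ratio. The KO minus WT difference was 3.13 ± 0.39 (log2, SE) in the spleen, 3.05 ± 0.39 in thymic γδ T cells and 3.76 ± 0.40 in DN cells, with adjusted p of 9.04e-05, 0.000142 and 0.00023 (edgeR quasi-likelihood test on the sums per library, n = 2 libraries per group, Benjamini-Hochberg adjustment over all genes tested). S100a6, also called calcyclin, was at 812 and 629 CPM against 5542 and 5151 CPM in the spleen, WT against KO. The thymic γδ T values of S100a6 were 190.2 and 228 CPM against 1618 and 2065 CPM, and those of DN cells 36.6 and 33.5 CPM against 612 and 257 CPM. S100a6 was higher in KO by 2.99 ± 0.33, 3.27 ± 0.34 and 3.61 ± 0.34 on the log2 scale in the same order (adjusted p = 4.3e-05, 4.23e-05 and 0.000118).

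S100a10, which does not bind calcium and joins annexin A2 into a complex, was at 1073 and 916 CPM in WT and 4047 and 3798 CPM in KO splenic cells. In the thymus it was at 658 and 739 against 1576 and 1616 CPM in γδ T cells and 166 and 179 against 659.6 and 364 CPM in DN cells. The differences were 2.08 ± 0.22, 1.32 ± 0.21 and 1.55 ± 0.21 (log2, spleen, thymic γδ T, DN), with adjusted p of 2.25e-05, 0.000537 and 0.000722. For S100a11, an S100 protein that binds annexin A1, the values were 480.0 and 391 against 2045 and 1838 CPM in the spleen and 244 and 276 against 1016 and 1175 CPM in thymic γδ T cells. In DN cells S100a11 was at 137 and 160.2 CPM in WT and 462 and 272 CPM in KO. The S100a11 differences were 2.25 ± 0.22, 2.20 ± 0.22 and 1.29 ± 0.22 (adjusted p = 1.79e-05, 3.57e-05 and 0.00232). The KO and WT libraries of these S100 genes did not overlap in any compartment, though the share of all genes without overlap was not counted.

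Both galectins were higher in the KO libraries of all 3 compartments. Lgals1 was at 567 and 441 CPM in WT and at 3834 and 3556 CPM in KO splenic cells. In thymic γδ T cells it was at 418 and 480.0 against 999 and 1013 CPM, and in DN cells at 340.0 and 415 against 709 and 749.7 CPM. The difference was 2.97 ± 0.18 in the spleen and 1.29 ± 0.17 and 0.95 ± 0.17 in thymic γδ T and DN cells (log2; adjusted p = 6.32e-07, 0.00014 and 0.00273). Lgals3 was uneven between the KO libraries of thymic γδ T cells and even between those of the spleen. It was at 40.3 and 21.3 CPM in WT and 180.1 and 181 CPM in KO spleen, at 13.6 and 14.4 against 115 and 41.0 CPM in thymic γδ T cells, and at 9.43 and 11.96 against 134 and 69.6 CPM in DN cells. Lgals3 was nevertheless past the threshold in each, by 2.65 ± 0.46, 2.58 ± 0.46 and 3.23 ± 0.48 (adjusted p = 0.000845, 0.00125 and 0.00122).

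Capg, the capping protein, rose from 49.6 and 40.9 CPM in WT to 634 and 628 CPM in KO splenic cells. Thymic γδ T cells held it at 35.2 and 35.1 CPM in WT and 507 and 509 CPM in KO. In DN cells the values were 23.5 and 27.7 against 228 and 147 CPM. The log2 differences, 3.90 ± 0.19, 3.97 ± 0.19 and 2.86 ± 0.18, had adjusted p of 2.06e-07, 1.19e-06 and 1.09e-05. Vim was at 246 and 204 against 1349 and 1351 CPM in the spleen, 359.9 and 365 against 717 and 743 CPM in thymic γδ T cells, and 50.3 and 50.3 against 235 and 158 CPM in DN cells. Its difference was 2.68 ± 0.16, 1.13 ± 0.15 and 1.95 ± 0.15 (adjusted p = 5.97e-07, 0.000159 and 3.51e-05).

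Anxa2 was higher in KO by a wide margin in the spleen and by a narrow one in the thymus. Splenic values were 88.9 and 90.6 CPM in WT and 320.3 and 334 CPM in KO, a difference of 1.96 ± 0.10 (adjusted p = 3.4e-07). Thymic γδ T cells held 141 and 144 against 169 and 174 CPM (0.39 ± 0.10, adjusted p = 0.00884), and DN cells 111 and 127 against 152 and 153 CPM (0.36 ± 0.10, adjusted p = 0.0303). The libraries did not overlap, but the thymic calls of Anxa2 were lost when single libraries were left out. The γδ T call was lost without WT library 1 (0.38), WT library 2 (0.40) or KO library 2 (0.33), and the DN call without WT library 1 (0.19) or KO library 2 (0.26), all on the log2 scale.

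Tmsb10 was the exception among the 10 genes. In splenic γδ T cells it was at 4717 and 5084 CPM in WT and 2935 and 2693 CPM in KO, and in thymic γδ T cells at 4203 and 4662 against 2567 and 2298 CPM. In DN cells the order was the opposite, with 458 and 542 CPM in WT and 1962 and 2227 CPM in KO. Tmsb10 therefore fell by 0.70 and 0.74 on the log2 scale in the KO γδ T cells of spleen and thymus (SE 0.15 in both, adjusted p = 0.00274 and 0.00226) and rose by 2.07 ± 0.16 in the KO DN cells (adjusted p = 2.86e-05). The KO libraries of the 3 compartments ranged from 1962 to 2935 CPM, while the WT libraries ranged from 458 to 5084 CPM.

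**Figure D1:**
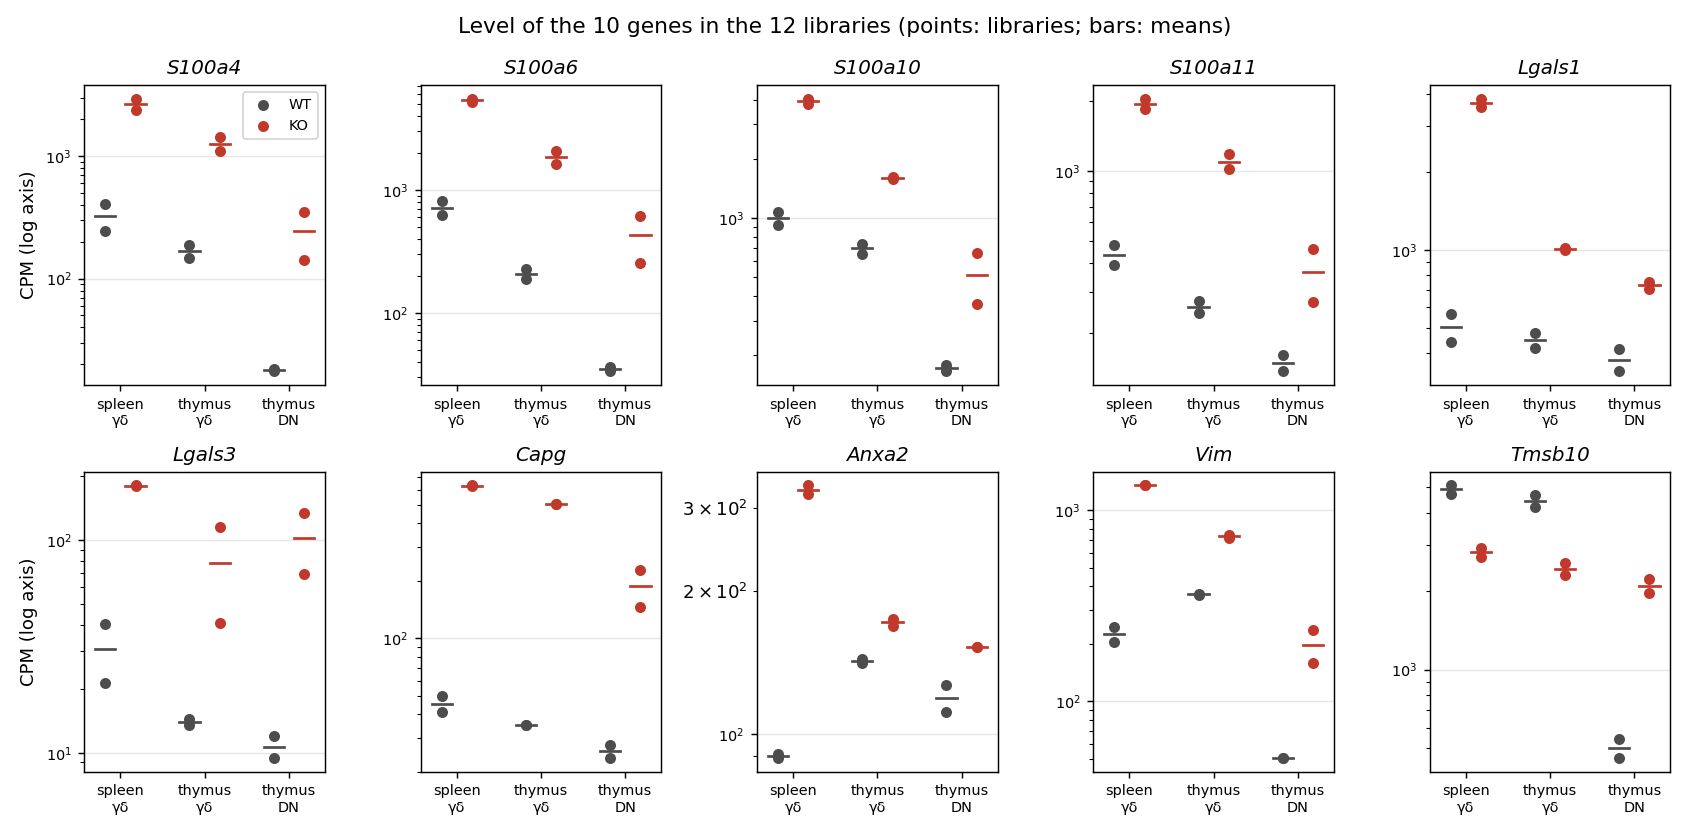
Level of the 10 genes in CPM (log axis) in each library, with WT in grey and KO in red, points for single libraries and bars for the means of 2 libraries. The KO points lie above the WT points in every panel and compartment but for Tmsb10, where the KO libraries of splenic and thymic γδ T cells lie below.

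Counted over the group, 10 of 10 genes passed the test in the spleen, 9 higher in KO and 1 lower, where 54.8% of all 14911 genes tested were called, 28.6% as higher and 26.1% as lower. In thymic γδ T cells it was again 9 higher and 1 lower, against 49.7% of all genes called, 26.1% as higher and 23.7% as lower. All 10 were higher in the KO DN cells, where 23% of all genes were called and 15.2% called higher. The median difference over the 10 genes was 2.67, 1.76 and 2.01 (log2) in spleen, thymic γδ T and DN cells, beside medians over all genes of 0.00326, -0.00176 and -0.0187. Each of these is a sum over sorted cells, in which a changed share of a cell type and a changed RNA level per cell cannot be told apart. With 2 libraries per group an exact permutation test of a single value cannot go below a two-sided p of 0.33. Libraries without overlap are therefore described only, and the share of all genes without overlap was not counted. The 10 genes were chosen with earlier results of these data known. The counts and medians above thus describe them and are no test of the set.

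The share of cells with a UMI of Mki67 or Top2a, genes of dividing cells, also moved with genotype, although in the spleen their summed level overlapped, at 39.1 to 63.2 CPM in WT and 52.0 to 63.3 CPM in KO. The gate asked for 1 UMI in cells that were not thinned, so these shares are no count of dividing cells. Cells with such a UMI were 6.29% and 4.29% of WT and 21.7% and 21.2% of KO splenic cells, but 39.2% and 42.2% against 25.2% and 22.2% of thymic γδ T cells and 55.1% and 52.3% against 40.9% and 45.7% of DN cells. In WT spleen S100a4 was at 1030 and 891 CPM in these cells and 337 and 202 CPM in the others, while in KO spleen it was at 2958 and 2414 against 2965 and 2389 CPM. In both thymic compartments S100a4 was lower in the cells with such a UMI than in the others of the same library, as in WT DN cells at 11.9 and 11.96 against 35.7 and 31.0 CPM. With these cells left out, an alternative added after the values had been seen, 10 genes were called in the spleen (background 55%), 10 in thymic γδ T cells (45.4%) and 9 in DN cells (24.8%), where Anxa2 was lost (0.33, adjusted p = 0.0748). S100a4 then differed by 3.34, 2.56 and 3.49 and Tmsb10 by -0.78, -1.02 and 1.91 (log2, spleen, thymic γδ T, DN).

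The effect of genotype itself was compared between compartments. In the spleen it exceeded that in thymic γδ T cells for 3 of 10 genes, Lgals1 by 1.68 ± 0.23, Anxa2 by 1.57 ± 0.14 and Vim by 1.55 ± 0.21 (log2, adjusted p = 0.000689, 7.48e-05 and 0.000614), where 29.5% of all genes were called, 13.6% in this direction. Between thymic γδ T and DN cells 3 of 10 differed, with a background of 21.8%. Capg rose more in thymic γδ T cells, by 1.12 ± 0.24 (adjusted p = 0.00934). Vim rose less there, at -0.82 ± 0.21 (adjusted p = 0.0205), and Tmsb10, with its opposite directions, differed by -2.81 ± 0.22 (adjusted p = 5.7e-05). The Vim difference missed the threshold when any of 5 single libraries was left out, both WT libraries of either thymic compartment and KO library 1 of the γδ T cells (-0.75 to -0.86).

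**Figure D2:**
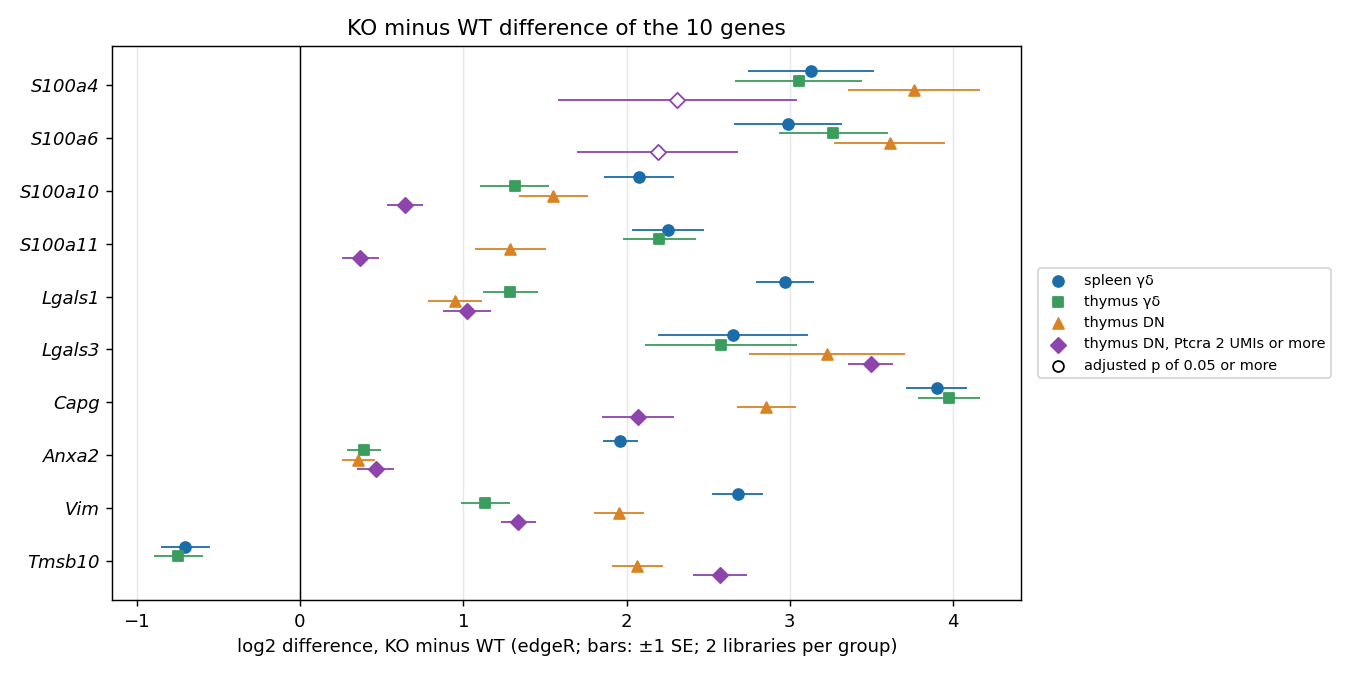
KO minus WT difference (log2, edgeR) of the 10 genes in splenic γδ T cells, thymic γδ T cells, thymic DN cells and DN cells with at least 2 Ptcra UMIs, with bars of 1 SE and open symbols for an adjusted p of 0.05 or more. Tmsb10 lies at -0.70 and -0.74 in the γδ T cells and at 2.07 and 2.57 in the DN cells, while all other symbols lie above 0.

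Among WT libraries alone most of the genes also differed between compartments, though not in one common order. Thymic γδ T cells were above DN cells for 8 of 10 genes, where 47.2% of all genes were called, 24.3% as higher. S100a4 was higher by 3.25 ± 0.39, Tmsb10 by 3.16 ± 0.16, Vim by 2.87 ± 0.16, S100a6 by 2.60 ± 0.33 and S100a10 by 2.04 ± 0.22 (log2, adjusted p from 8.62e-07 to 0.000174). The smaller differences of S100a11 (0.82), Capg (0.47) and Anxa2 (0.28) also passed, while Lgals1 (0.26, adjusted p = 0.213) and Lgals3 (0.40, adjusted p = 0.494) did not. The calls of Capg and Anxa2 were lost, at 0.07 and 0.06, with cells holding a Mki67 or Top2a UMI left out, and 5 genes were called without WT library 2 of the γδ T cells or WT library 1 of the DN cells. Splenic WT cells exceeded thymic γδ T WT cells in S100a6 by 1.86 ± 0.32, S100a11 by 0.82 ± 0.21, and, with adjusted p of 0.0363 to 0.0482, S100a4, S100a10 and Lgals3. Anxa2 and Vim were lower in the spleen by -0.59 ± 0.10 and -0.61 ± 0.15 (adjusted p = 0.000996 and 0.00719). These 7 calls stood beside a background of 48.8%, fell to 3 without either WT library of the thymic γδ T cells and to 4 without WT library 1 of the spleen, and are confounded with sex as said above. With cells holding a Mki67 or Top2a UMI left out, 3 were called, S100a6 (1.08), Anxa2 (-0.51) and Vim (-0.78), while S100a4 (0.24), S100a10 (0.17), S100a11 (0.30) and Lgals3 (0.24) were not. The share of all genes called in that fit was not counted.

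Shares of cells with a UMI gave the single-cell side of these sums. To put cells of unlike depth on one footing, each cell was thinned at random to 2000 UMIs and shallower cells were left out. In the spleen S100a4 was then detected in 20.4% and 19.4% of WT and 96.6% and 95.9% of KO cells (28.9%, 32.3%, 97.2% and 97.1% unthinned). Capg was detected in 7.29% and 6.78% of WT and 70.2% and 68.5% of KO cells, and Lgals3 in 3.52% and 2.61% against 22.1% and 23.9% (12.8%, 13.7%, 92.2% and 91.3%, and 5.98%, 5.21%, 41.2% and 45.1%, unthinned). Tmsb10 was found in nearly all splenic cells of either genotype, at 96.5% and 98.4% against 98.7% and 98.7%, although its median fell from 9 and 10 UMIs per thinned cell in WT to 6 and 5 in KO. Detection of Tmsb10 was thus near complete in both genotypes and its count per cell was lower in KO. In thymic γδ T cells Tmsb10 was detected in 95.0% and 95.6% of WT and 94.3% and 92.8% of KO cells, and unthinned in 96.7% and 97.5% against 96.9% and 96.7%, where the genotypes overlapped. Anxa2 in DN cells was detected in 18.03% and 22.2% of WT and 23.6% and 24.3% of KO cells, and unthinned in 46.6% and 51.6% against 47.3% and 51.3%, which overlapped as well.

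In the thymic γδ T cells S100a4 was detected in 18.6% and 24.3% of WT and 68.5% and 79.0% of KO cells, and in DN cells in 3.32% and 2.77% against 28.5% and 13.96% (38.4%, 47.4%, 76.8% and 84.5%, and 7.27%, 5.50%, 33.2% and 17.9%, unthinned). Tmsb10 was detected in 47.6% and 53.4% of WT DN cells and 88.2% and 89.5% of KO DN cells (75.2%, 81.2%, 89.7% and 91.6% unthinned). Cells with 8 or more of the 10 genes made up 5.52% and 3.40% of WT and 76.5% and 76.5% of KO splenic cells. They were 1.66% and 2.23% against 37.5% and 41.0% of thymic γδ T cells, and 0.362% and 0.580% against 16.1% and 7.51% of DN cells. Both KO libraries lay above both WT libraries in each compartment, and these shares are given as a description. Free RNA in the droplets can add UMIs to cells that do not express a gene, and its part in the splenic shares was not tested. In KO DN cells with at least 2 Ptcra UMIs, described below, S100a4 was detected in 4.89% and 2.13% of thinned cells.

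The γδ T cells were also split by their receptor chain, taken as the Trgv gene (a variable segment of the γ chain) with the most UMIs in a cell. Cells called as Trgv6 were 2.40% and 2.05% of WT (188 and 229 cells) and 43.8% and 39.5% of KO splenic cells (3422 and 4613 cells), and cells with another Trgv call 53.4% and 57.6% against 22.5% and 28.9%. In WT the genes stood high in the Trgv6-called cells already. S100a4 was at 3349 and 1749 CPM there and at 309 and 202 CPM in the other-called cells of the same libraries, S100a6 at 5569 and 3586 against 658 and 533 CPM, and Capg at 387 and 245 against 34.96 and 34.9 CPM. All 10 genes differed between these cells of WT spleen, 9 higher in the Trgv6-called cells, such as S100a4 by 3.34 ± 0.08, and Tmsb10 lower by -0.30 ± 0.07 (log2, edgeR with the library as block, adjusted p = 2.58e-15 and 0.0018, background 26.8%, and 15.7% as higher). This comparison, like the others between Trgv calls, was added after the values had been seen.

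In KO spleen the same split showed no such step, but it set almost no gene of the whole list apart. The count of 0 below thus lies near the share of all genes called and is not particular to these genes. S100a4 was at 2978 and 2371 CPM in Trgv6-called and 2898 and 2395 CPM in other-called cells, Capg at 636 and 625 against 609 and 626 CPM, and Tmsb10 at 2830.0 and 2623 against 3035 and 2734 CPM. By edgeR 0 of 10 genes were called, 0 had an unadjusted p under 0.05, DESeq2 also called 0, and the differences ran from -0.09 to 0.02 (log2), where 0.101% of all genes were called. The effect of genotype was smaller in Trgv6-called than in other-called cells for 9 genes, from S100a4 at -3.34 ± 0.11 to Anxa2 at -1.54 ± 0.28 (adjusted p = 2.63e-13 and 0.0436, background 21.5%, and 13.8% in this direction), while Tmsb10 differed by 0.20 ± 0.09 with an adjusted p of 0.134. With KO steps of only -0.09 to 0.02, these differences mostly restate the WT step with its sign turned and are no separate result. Calls rest on few UMIs, and in KO cells called as Trgv2 a Trgv6 UMI was also present in 44.0% and 48.9% of cells, against 3.11% and 2.997% in WT. With such cells left out, 1094 of 1761 and 1884 of 3379 other-called KO cells remained, and all 10 genes were still called against WT (background 56.7%), with S100a4 at 3.81 and Capg at 4.50 (log2). A cell whose Trgv6 RNA was not counted still remains, and the study says its method captures variable segments unreliably. The study also reports that clusters with Vγ6 markers held nearly all KO splenic γδ T cells. Other-called cells therefore need not be the same kind of cell in WT and KO, and the part of this was not tested.

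Comparing KO with WT inside each class gave the other side of this. In splenic other-called cells all 10 genes passed (background 58.4%), with S100a4 at 3.43 ± 0.26, Capg at 4.20 ± 0.09 and Tmsb10 at -0.72 ± 0.09. As said above, this class need not hold the same kind of cell in WT and KO. In splenic Trgv6-called cells 2 of 10 passed, against a background of 12%, Capg at 0.95 ± 0.20 (adjusted p = 0.0118) and Tmsb10 at -0.55 ± 0.16 (adjusted p = 0.0386). S100a4 (0.02, adjusted p = 0.984, with 2 SE on either side reaching from -0.60 to 0.65) and S100a6 (0.18, adjusted p = 0.685) did not. Nor did Lgals1 (0.47), Vim (0.39), Anxa2 (0.34), S100a11 (0.11), S100a10 (-0.09) and Lgals3 (-0.45). For Lgals1, 2 SE on either side reached from -0.03 to 0.96. The study's own list for splenic Trgv6+ cells, from a test on single cells, holds Capg, Lgals1, Vim, Anxa2 and S100a6 as higher in KO. It holds Tmsb10 and S100a10 as lower. The count of 2 called genes given above rests on 2 WT libraries that disagreed in S100a4. Trgv6-called cells of WT library 1 lay above the KO cells in S100a4 and those of WT library 2 below. Each fit named next leaves 1 library in WT or in KO, and that group then has no spread of its own. Counts of called genes from these fits are a description and no test. Without WT library 1, 9 genes were called (background 16.2%), with S100a4 at 0.61, and without KO library 1 or KO library 2 only Capg was.

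**Figure D3:**
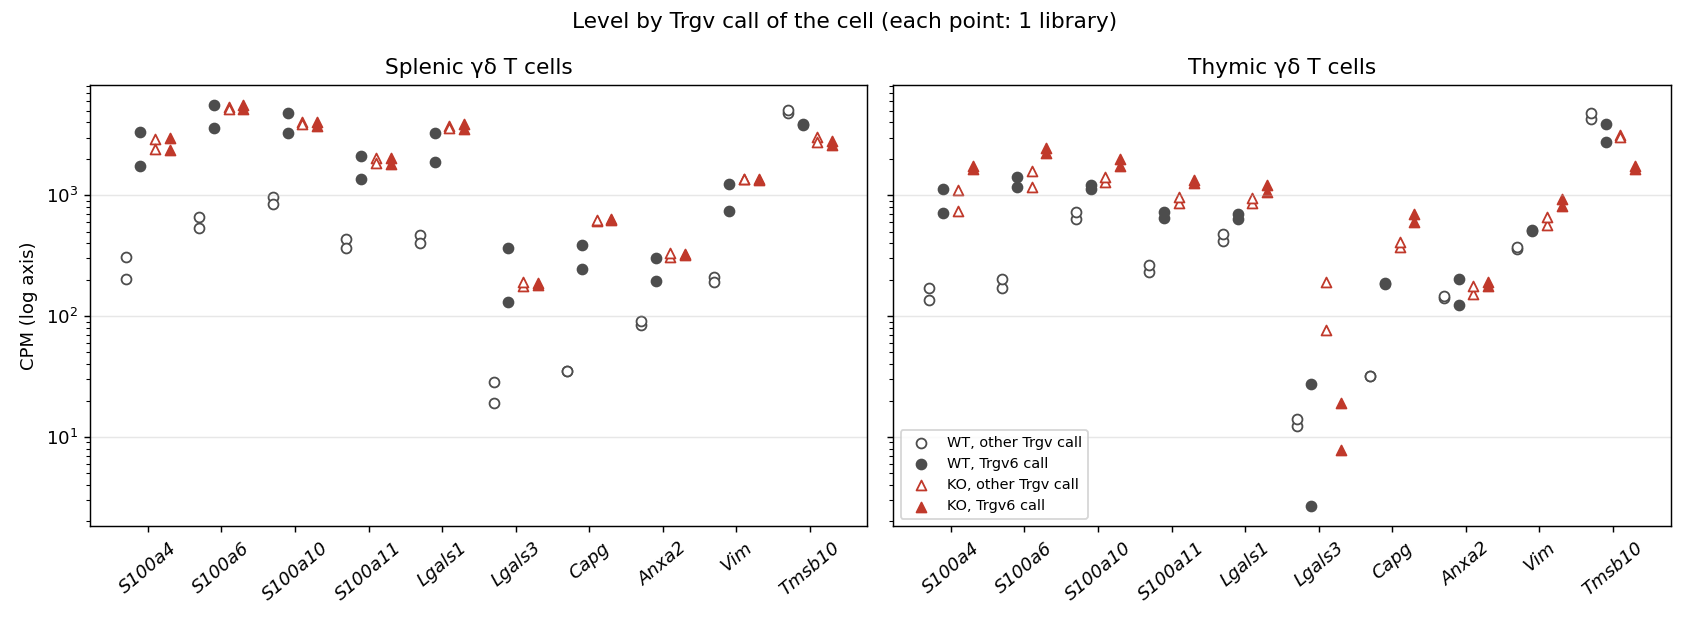
Level of the 10 genes (CPM, log axis) in cells with a Trgv6 call and cells with another Trgv call, in splenic and thymic γδ T cells, each point 1 library, WT in grey circles and KO in red triangles. In the spleen the open WT symbols stand below the other symbols of the same gene for 9 genes, all but Tmsb10, as for Capg at 34.96 and 34.9 CPM beside 245 to 636 CPM.

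The thymic γδ T cells followed the spleen only in part. Trgv6-called cells were 0.601% and 0.715% of WT (41 and 57 cells) and 29.8% and 35.3% of KO cells (2028 and 2691 cells). In WT 6 of 10 genes were higher in them than in other-called cells (background 3.67%, and 2.86% as higher), S100a6 by 2.79 ± 0.13, S100a4 by 2.56 ± 0.15, Capg by 2.56 ± 0.18, S100a11 by 1.48 ± 0.13, S100a10 by 0.78 ± 0.13 and Lgals1 by 0.58 ± 0.14 (log2), the last 2 being lost without either WT library. In KO the step was still present, with 9 of 10 genes called against a background of 30.2%, of which 13.3% higher and 16.9% lower. Of those, 7 were higher in the Trgv6-called cells, by 0.36 for Lgals1 to 0.94 for S100a4, and 2 lower, Tmsb10 by -0.82 ± 0.12 and Lgals3 by -3.28 ± 0.16 (adjusted p = 0.000123 and 1.32e-07). Without KO library 1, which leaves 1 KO library, more calls were lost than those named next. The Lgals1 call was lost in DESeq2 (0.36, adjusted p = 0.131) and without KO library 1 (0.20) or KO library 2 (0.53), and that of S100a11 without KO library 1 (0.50) or KO library 2 (0.59). Lgals3 was at 19.1 and 7.78 CPM in Trgv6-called and 189.8 and 76.4 CPM in other-called KO cells, so both KO libraries held more of it in the other-called cells. Thymic cells called as Trgv2 also held a Trgv6 UMI in 23.3% and 28.1% of KO cells, against 1.68% and 1.89% in WT. Here too the other-called cells need not be the same kind of cell in WT and KO, and the part of this was not tested. The effect of genotype was smaller in Trgv6-called cells for S100a6 (-1.98 ± 0.17), Capg (-1.79 ± 0.20), S100a4 (-1.62 ± 0.20) and S100a11 (-0.94 ± 0.16), 4 of 10 beside a background of 3.41%, and 3.32% in this direction. Of these, the S100a11 call was lost without WT library 1 (-0.90), WT library 2 (-0.97) or KO library 2 (-0.85), and the S100a4 call without WT library 2 (-1.46).

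Within the thymic Trgv6-called cells 8 of 10 genes differed between KO and WT (background 15.9%). Capg was at 185 and 187 against 705 and 601 CPM, a difference of 1.89 ± 0.16, and S100a4 at 708 and 1123 against 1659.9 and 1729 CPM, or 0.96 ± 0.18 (adjusted p = 6.47e-06 and 0.0043). Tmsb10 fell by 0.88 on the log2 scale, from 2761 and 3879.8 to 1757 and 1653 CPM. The WT values rest on 41 and 57 cells. As said above, the other-called class of the thymus need not hold the same kind of cell in WT and KO. In other-called thymic cells all 10 passed (background 45.3%), among them Capg at 3.71 ± 0.08 and Lgals3 at 3.44 ± 0.48, whose call was lost with the pool as a block (3.30, adjusted p = 0.099), with no filter on low counts (3.42, 0.0828), and without WT library 1 (3.34, 0.109) or WT library 2 (3.53, 0.104). Anxa2 passed at 0.29 (adjusted p = 0.0416) but not in DESeq2 (0.27, adjusted p = 0.0537), with RLE scaling (0.27, adjusted p = 0.0572), with cells holding a Trgv6 UMI left out (0.27, adjusted p = 0.0906), or without WT library 1, WT library 2 or KO library 2 (0.15 to 0.30).

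Cd24a, a surface marker of immature thymic γδ T cells, split Tmsb10 from the rest. In cells with at least 2 Cd24a UMIs (599 and 801 WT, 160 and 115 KO cells) Tmsb10 was at 3256 and 2926 CPM in WT and 4657 and 4559 CPM in KO, higher by 0.61 ± 0.09 (adjusted p = 0.00283). In cells with 0 Cd24a UMIs it was at 4419 and 5225 CPM in WT and 2314 and 2090.0 CPM in KO, lower by -0.99 ± 0.11 (adjusted p = 0.00125). The direction of Tmsb10 thus differed between the Cd24a-high and Cd24a-negative gates of the same libraries. Each gate was tested on its own, and the difference between the gates was not tested. The cells were not thinned for these gates, so 0 UMIs can also mean Cd24a RNA that was missed. The share of Trgv6-called cells also moved with genotype in this sort, and the part of this was not tested. The Tmsb10 call in Cd24a-high cells was lost without KO library 1 or 2 (0.60 and 0.62). The other 9 genes were called higher in KO in both gates, although single libraries decided the call of Lgals3 and Anxa2 in each, with backgrounds of 8.54% (5.54% as higher) at 2 or more Cd24a UMIs and 55.2% (28.6% as higher) at 0. In the first gate S100a6 was at 56.5 and 63.7 CPM in WT and 229.7 and 276 CPM in KO (2.10 ± 0.11), and Lgals1 at 450.1 and 468 against 1149.9 and 1113 CPM (1.33 ± 0.09).

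**Figure D4:**
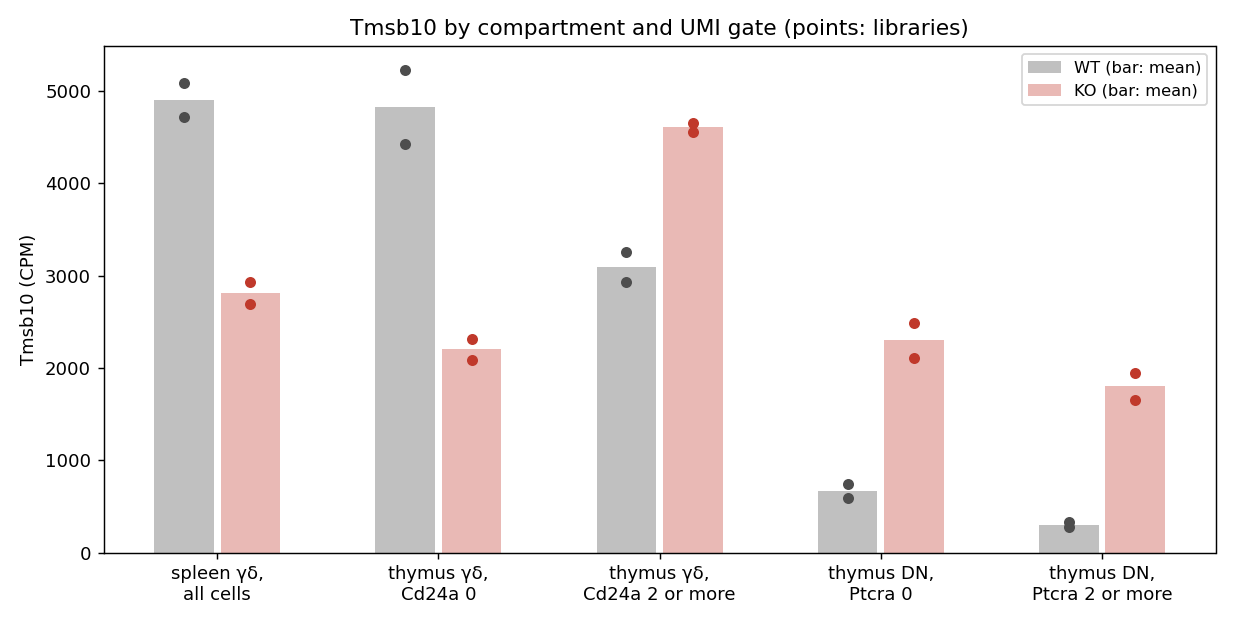
Tmsb10 level in CPM, from 0, in splenic γδ T cells, in thymic γδ T cells by Cd24a UMIs and in thymic DN cells by Ptcra UMIs, with bars for the means of 2 libraries and points for the libraries. KO is below WT in the first 2 pairs of bars and above it in the others, as in Cd24a-high cells at 4657 and 4559 against 3256 and 2926 CPM.

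The DN sort held cells of several kinds, whose shares did not overlap between genotypes for the Il2rb and Kit classes. The cells were assigned in the order of at least 2 Cd79a UMIs, at least 2 Ptcra UMIs, an Il2rb UMI, a Kit UMI, and the rest. The Il2rb class, named for the β chain of the receptor for interleukins IL-2 and IL-15, made up 3.51% and 3.56% of WT and 26.4% and 13.6% of KO DN cells. They held S100a4 at 200.1 and 234 CPM in WT and 737 and 634 CPM in KO, and 30.8%, 39.2%, 52.2% and 47.9% of all S100a4 UMIs of their libraries. KO library 1, which had the larger share of such cells, was the higher KO library in 7 genes, S100a4, S100a6, S100a10, S100a11, Lgals3, Capg and Vim, and the lower one in Lgals1 and Tmsb10, while Anxa2 was level, and the part of this share in the levels was not tested. The Kit class, named for a receptor of the earliest thymic stages, was 13.3% and 10.9% of WT and 5.71% and 5.84% of KO cells, with S100a4 at 11.9 and 11.7 against 38.1 and 34.4 CPM and Tmsb10 at 602 and 659 against 1989 and 2334 CPM. With cells holding an Il2rb or Cd79a UMI left out, a split chosen after the data had been seen, 9 of 10 genes were still called (background 10.9%), S100a4 at 3.67, Tmsb10 at 2.14 and Capg at 2.62 (log2). Anxa2 was not, at 0.40 with an adjusted p of 0.142.

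Ptcra encodes the pre-Tα chain that pairs with a rearranged β chain at the DN3 stage, so cells with at least 2 Ptcra UMIs are a narrower population. They numbered 1607 and 2026 in WT and 1048 and 2268 in KO libraries, or 22.3%, 27.1%, 14.99% and 30.01% of the DN cells. Tmsb10 was at 280.0 and 328 CPM in WT and 1651 and 1950.0 CPM in KO, a difference of 2.57 ± 0.16 (adjusted p = 1.26e-07). Lgals3 was at 3.13 and 3.44 against 36.7 and 37.1 CPM (3.49 ± 0.14, adjusted p = 9.62e-10), and here the KO libraries, unlike in the whole sort, lay close together. Capg was at 24.6 and 31.9 against 102 and 133 CPM (2.07 ± 0.22, adjusted p = 0.00129) and Vim at 26.6 and 28.4 against 69.0 and 69.4 CPM (1.34 ± 0.10, adjusted p = 8.15e-07). Lgals1 was higher by 1.02 ± 0.15, S100a10 by 0.64 ± 0.11, Anxa2 by 0.46 ± 0.11 and S100a11 by 0.37 ± 0.12 (adjusted p = 0.000268, 0.00108, 0.0104 and 0.0417). The S100a11 call was lost at 0.15 (adjusted p = 0.651) in Ptcra-high cells with no UMI of Cd79a, Il2rb, Trdc, Lyz2 or Csf1r, at 0.39 (0.067) with at least 4 Ptcra UMIs, and without WT library 1 (0.24) or KO library 2 (0.31). The Anxa2 call was lost without WT library 1 (0.35).

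The S100 genes S100a4 and S100a6 did not pass in the Ptcra-high cells. S100a4 was at 8.26 and 4.16 CPM in WT and 45.8 and 18.1 CPM in KO, a difference of 2.31 ± 0.73 with an adjusted p of 0.221. S100a6 was at 13.3 and 9.63 against 73.1 and 34.3 CPM, or 2.19 ± 0.49 with an adjusted p of 0.112. The libraries of either gene did not overlap, though the share of all genes without overlap was not counted. Both genes passed in DESeq2 (2.35 and 2.22, adjusted p = 0.0113 and 0.000283). They also passed with the pool as a block (2.32 and 2.17), a fit of 4 sums that leaves little to measure the spread. Single KO libraries moved the values of both genes, to 1.63 and 1.66 without KO library 1 and 2.85 and 2.63 without KO library 2. Each of these fits leaves 1 KO library. In Ptcra-high cells with no UMI of the 5 genes named above both passed as well, at 2.05 and a smaller 1.36 (adjusted p = 0.000345 and 0.000354). In all, 8 of 10 genes were called by edgeR, beside 17.1% of all genes, 10.5% as higher, and 10 with the block, beside 32.8%. At 2000 UMIs per cell Tmsb10 was detected in 39.3% and 45.4% of WT and 91.0% and 92.9% of KO Ptcra-high cells, Capg in 6.64% and 9.45% against 20.7% and 25.7%, and S100a4 in 1.57% and 1.19% against 4.89% and 2.13%. S100a6 was found in 2.44% and 1.99% against 5.37% and 3.51%, and Lgals3 in 0.627% and 0.697% against 4.22% and 5.78%. S100a4, S100a6 and Lgals3 were thus found in few of these cells of either genotype, so the difference of Lgals3 also rests on few cells, while Tmsb10 was in most KO cells.

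DN cells with 0 Ptcra UMIs and fewer than 2 Cd79a UMIs were tested as well, a gate that leaves out cells with 1 Ptcra UMI. Of the 10 genes 9 were called as higher, S100a4 by 3.78 ± 0.28, S100a6 by 3.65 ± 0.28, Capg by 3.26 ± 0.25 and Tmsb10 by 1.81 ± 0.24 (adjusted p = 0.000497, 0.000507, 0.000507 and 0.00221, background 20%, and 14.1% as higher), and Anxa2 was not (0.36, adjusted p = 0.166). Without WT library 1 the calls of Lgals1, S100a10, S100a11 and Tmsb10 were lost. That fit leaves 1 WT library and its share of all genes called was not counted, so the loss is a description only. The gate also takes in cells of the Il2rb class, whose share differed with genotype as given above. The part of this was not tested.

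**Figure D5:**
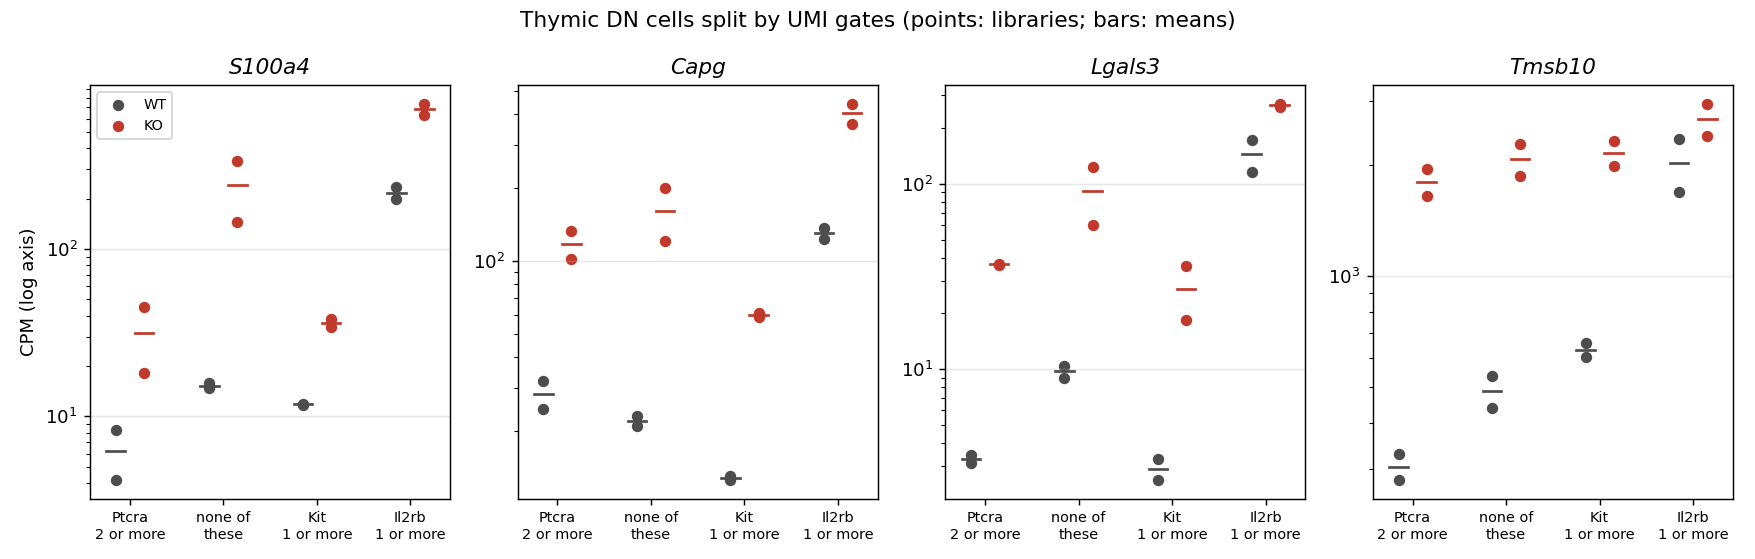
Levels of S100a4, Capg, Lgals3 and Tmsb10 (CPM, log axis) in DN cells split by UMIs of Ptcra, Kit and Il2rb, with points for libraries and bars for means of 2. The Il2rb class is the highest for S100a4 in both genotypes (200.1 and 234 CPM in WT, 737 and 634 CPM in KO), and KO lies above WT in every class shown.

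The other genes of these families were read from lists of their symbols. Of 6 tested further S100 genes, 4 were higher and 0 lower in KO spleen, 3 and 1 in thymic γδ T cells, and 3 and 0 in DN cells, beside the backgrounds given above. S100a13 was among them in each compartment, at 139 and 136 against 372 and 349 CPM in the spleen (1.49 ± 0.12, adjusted p = 4.39e-06). Among 10 tested galectins, their binding proteins and ligands, 4 were higher and 4 lower in KO spleen, 5 and 2 in thymic γδ T cells, and 4 and 0 in DN cells. Of all genes 28.6% were higher and 26.1% lower in the spleen, 26.1% and 23.7% in thymic γδ T cells, and 15.2% higher in DN cells. The integrin β1 gene Itgb1 rose by 2.44 ± 0.16 in the spleen and Lgals3bp by 1.93 ± 0.16, while Ptprc, which encodes the surface phosphatase CD45, fell there by 1.40 on the log2 scale (SE 0.13, adjusted p = 1.1e-05). Lgals9 was lower in KO thymic γδ T cells (-1.17 ± 0.11). Cd7, whose product is a galectin-1 ligand, was at 9.68 and 9.47 CPM in WT and 136 and 92.6 CPM in KO DN cells (3.57 ± 0.17, adjusted p = 1.79e-06).

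Of 10 annexins and their partners 7 were higher and 2 lower in the spleen, where 28.6% of all genes were higher and 26.1% lower, 7 and 1 in thymic γδ T cells (26.1% and 23.7%), and 8 and 1 in DN cells (15.2% higher, of 23% called). The median differences of the list were 1.14, 1.07 and 1.38 (log2), beside 0.00326, -0.00176 and -0.0187 over all genes. Ahnak, a giant scaffold protein that binds the complex of S100a10 and annexin A2, was at 196 and 180 against 787 and 762 CPM in the spleen. It was at 28.6 and 29.2 against 266 and 294 CPM in thymic γδ T cells and at 7.14 and 5.06 against 112 and 44.3 CPM in DN cells. The Ahnak differences were 2.14 ± 0.31, 3.40 ± 0.33 and 3.66 ± 0.34 (adjusted p = 0.000279, 3.28e-05 and 0.000112). Anxa5 rose by 2.26 ± 0.17, 1.28 ± 0.17 and 1.27 ± 0.17 in the same order.

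The actin counts are to be read beside the same shares of all genes, 28.6% higher and 26.1% lower in the spleen, 26.1% and 23.7% in thymic γδ T cells and 15.2% higher in DN cells, and several lie near them. Actin monomers and their binding proteins were higher for 10 of 11 genes in KO spleen, 4 of 11 in thymic γδ T cells, where 1 was lower, and 4 of 11 in DN cells. Tmsb4x, the β-thymosin related to Tmsb10, rose in all 3, by 0.75 ± 0.24, 0.84 ± 0.24 and 1.41 ± 0.24 (adjusted p = 0.0204, 0.0134 and 0.0023), and so differed in direction from Tmsb10 in the γδ T cells. Of the Arp2/3 complex, which starts branched filaments, and its activators 10 of 12 were higher in the spleen, 4 of 12 in thymic γδ T cells with 1 lower, and 2 of 12 in DN cells. Capping and severing genes other than Capg were split, with 4 higher and 2 lower of 10 in the spleen, 3 and 3 in thymic γδ T cells, and 1 and 0 in DN cells, and Gsn, which severs filaments, fell in thymic γδ T cells (-1.78 ± 0.17). Of 18 bundling, linking and myosin genes 14 were higher and 1 lower in the spleen, 8 and 2 in thymic γδ T cells, and 8 and 0 in DN cells. The lower one in the spleen was Actn1, an actin-bundling α-actinin, at 123 and 119 against 3.84 and 5.02 CPM (-4.67 ± 0.17, adjusted p = 4.94e-08), while Tagln2 rose by 1.83 ± 0.17 and Flna by 1.36 ± 0.15. Among 6 intermediate filament and lamin genes other than Vim, 4 were higher in the spleen, 3 higher and 3 lower in thymic γδ T cells, and 2 higher in DN cells. Lmna rose by 2.66 ± 0.32 in the spleen, and Lmnb1 rose there (1.19 ± 0.12) and fell in thymic γδ T cells (-0.88 ± 0.12).

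Across the 12 libraries S100a4 and S100a6 followed each other most closely (Pearson r = 0.991 of log2 CPM), and the lowest r between 2 of the 9 genes other than Tmsb10 was 0.652, of S100a6 and Anxa2. Tmsb10 gave r of 0.0585 with Anxa2 to 0.633 with S100a10. These describe libraries that share genotype and compartment and are no test. The genes outside the group whose profile was most like the mean of its members, over 6714 candidates, were Morrbid (r = 0.989), Capn2 (0.982), Myo1e (0.980), Tspo (0.977) and Anxa5 (0.977).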

How the data were processed

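Gene expression was measured by 10x Genomics 3′ single-cell RNA-seq in cells sorted from WT and GFI1 KO mice after depletion of B, myeloid and NK cells. The deposited matrices hold UMI counts, which the authors made with Cell Ranger 8.0.1 (genome build GRCm39 in the submitters' processing notes) and split into 1 matrix per library by hashtag with hashsolo. Those hashtag counts are in the same matrices, and a cell's own tag was the higher one in 99.59 to 100% of cells. No barcode (0) was shared between the libraries of a pool, and 5 to 34 were between libraries of different pools. No samples were left out, and no doublets were called beyond the hashtags.

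Cells with under 500 UMIs, under 200 genes or over 20% mitochondrial UMIs were dropped, as in the study's methods, and 9548 mitochondrial, ribosomal and Gm genes were left out of the tests. Counts were summed per library (or per library and gate) and tested in R 4.3.3 with edgeR 4.0.16 (limma 3.58.1, TMM scaling, filterByExpr, quasi-likelihood test, Benjamini-Hochberg adjustment, called at 0.05). The 3 compartments were fitted together, and each gate was fitted on its own 4 sums. Comparisons of Trgv calls used the library as a block. A Trgv call is the Trgv gene with the most UMIs in a cell, and ties or cells without one have none. CPM values are a gene's sum scaled to all UMIs of the library or gate. Sums, shares and figures used Python 3.11.15, numpy 2.4.6, pandas 2.3.3, scipy 1.17.1 and matplotlib 3.10.9. The edgeR script was tested on simulated counts with known changes. Alternatives were DESeq2 1.42.0, RLE scaling, no filter on genes or on cells, other cell filters, the pool as a block, and each library left out in turn.

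The members and gene lists were chosen with earlier results of these data known. From each list the text names at most 4 called genes, those of largest difference that averaged 20 CPM or more, beside the 5 genes of most similar profile. The labels say that WT and KO cells of a number were pooled, so the numbers pair the libraries. The correlation of their deviations was 0.29, 0.063 and 0.175 in spleen, thymic γδ T and DN cells, and 0.0917 (WT) and 0.0717 (KO) between thymic γδ T and DN cells of one number, which the labels do not tie to the same mice. Nothing in the labels says how many mice a library holds, so p-values measure the spread between libraries only. Promoter sequences come from RefSeq on GRCm38.p6, another build than that of the counts, and no coordinate was carried over.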

Additional observations from a re-analysis of the deposited data

Results flagged for a closer look

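The effect of genotype differed between groups of cells in a test of the difference itself for the following results, all as log2 differences with adjusted p from edgeR, and none of them was followed further. Between splenic and thymic γδ T cells, which differ in tissue, sex and run, the KO effect differed by 1.68 for Lgals1 (adjusted p = 0.000689), 1.57 for Anxa2 (7.48e-05) and 1.55 for Vim (0.000614). These were 3 of 10 genes, where 29.5% of all genes were called. Between thymic γδ T and DN cells the KO effect differed by 1.12 for Capg (0.00934), -0.82 for Vim (0.0205) and -2.81 for Tmsb10 (5.7e-05). These too were 3 of 10, where 21.8% of all genes were called, so both counts lie near the share of all genes.

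Between Trgv6-called and other-called splenic cells the KO effect was smaller in the former by -3.37 for Lgals3 (0.028), -3.34 for S100a4 (2.63e-13), -3.19 for Capg (0.000948) and -2.97 for S100a6 (1.22e-12). It was also smaller by -2.59 for Lgals1 (0.00266), -2.35 for Vim (0.00336), -2.22 for S100a10 (2.89e-09), -2.17 for S100a11 (9.78e-09) and -1.54 for Anxa2 (0.0436). Of all genes 21.5% were called there, and as said above these splenic values mostly restate the step within WT. In either tissue the other-called cells need not be the same kind of cell in WT and KO. In thymic cells, where 3.41% of all genes were called, the same difference was -1.98 for S100a6 (5.88e-06), -1.79 for Capg (6.67e-05), -1.62 for S100a4 (0.000207) and -0.94 for S100a11 (0.00356). The last of these missed the threshold without WT library 1, WT library 2 or KO library 2, and that of S100a4 without WT library 2 (-1.46, adjusted p = 0.0913). The WT Trgv6-called cells behind these values numbered 188 and 229 in the spleen and 41 and 57 in the thymus. No group held 4 or more libraries, so no search for outlying libraries was made.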

How the results depend on the processing

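Of 1508 alternative values of 156 called results of the 10 genes, 1400 kept the call, 108 lost it (71 of them by leaving out a library) and 0 changed sign. Of 532 alternative values of the 54 results not called, 49 changed sign, 41 of them by leaving out a library. Lgals3 in splenic Trgv6-called cells was among them and turned from -0.45 to higher in KO without WT library 1, a fit with 1 WT library. Leaving out single libraries gave 10 called genes throughout in the spleen, 9 to 10 in thymic γδ T and 9 to 10 in DN cells. The ranges were 3 to 3 for the spleen-to-thymus and 2 to 5 for the thymus-to-DN difference in effect, 5 to 8 and 3 to 5 for WT thymic γδ T against DN and WT spleen against thymus, 6 to 10 for Ptcra-high and 5 to 9 for Ptcra-negative DN cells. They were 1 to 9 and 10 to 10 for splenic Trgv6-called and other-called cells, 7 to 9 and 7 to 10 for the thymic ones, 7 to 10 and 8 to 10 for Cd24a-high and Cd24a-negative cells. For Trgv6 against other calls they were 10 to 10 in WT and 0 to 0 in KO spleen, 4 to 4 in WT and 4 to 7 in KO thymus, and 9 to 10 and 3 to 5 for the difference in effect in spleen and thymus. WT spleen against thymus gave 4 called genes in place of 7 with cells of other-type markers left out 4 with cells of over 3 times the median depth left out and 3 with cells holding a Mki67 or Top2a UMI left out, and the cause was not tested. The DN call of Anxa2 was also lost with those deep cells left out (0.30) and when only the 4 DN libraries were fitted (0.37). The leave-out ranges count calls in fits with 1 library in a group. Shares of all genes called were not set beside the counts of this paragraph, and such shares move with the setting. In Ptcra-high cells they were 17.1% and, with the pool as a block, 32.8%.

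In splenic Trgv6-called cells S100a4 turned to -0.38 without WT library 2 and -0.22 without KO library 1, and S100a6 to -0.12 without WT library 2. Without WT library 1 these genes were at 0.61 and 0.57. Each of these fits leaves 1 library in a group. The splenic share of cells with a Tmsb10 UMI turned from higher to lower in KO, by -0.425 percentage points, when cells were thinned to 1000 UMIs. With the pool as a replicate block the counts were 10, 10 and 10 in spleen, thymic γδ T and DN cells, 10 in place of 8 in Ptcra-high DN cells, 9 in place of 10 in other-called thymic cells, and unchanged at 3 and 3, 9, 2, 10, 8, 10 and 10 in the other comparisons it could be fitted to. Thymic γδ T and DN libraries of one number share only that number, and with it as a replicate block 6 genes in place of 8 were called in WT thymic γδ T against DN cells. The share of all genes called under a block is given only for Ptcra-high cells (32.8%), so the other block counts stand without one. Comparisons of Trgv calls, cells without a Mki67 or Top2a UMI, cells without a Trgv6 UMI and DN cells without an Il2rb or Cd79a UMI were chosen after seeing the data.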
